A study of Mus musculus with 7 samples.

Results

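The globin and erythroid genes are a list of 7 genes that mark red blood cells and their precursors: the adult alpha globins Hba-a1 and Hba-a2, the adult beta globins Hbb-bs and Hbb-bt, Alas2, Slc4a1 and Ahsp. They were found by gene symbol, and 6 of the 7 were matched among the 55401 genes of the count table. Ahsp was not analysed here. All 6 matched genes passed the filter on low counts that left 17465 genes for testing.

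RNA-seq was performed on right lung lobes of 7 male C57BL/6 mice, aged 6 to 8 weeks, all of which had received bleomycin into the airway. BLM comprised 4 mice. BLM+HBO comprised 3 mice randomised on day 7 to hyperbaric oxygen (HBO), pure oxygen breathed under pressure, at 2.5 ATA for 90 min in each of 14 daily exposures. Tissue from both groups was taken on day 21. The sample records place the BLM mice in the chamber without pressurised oxygen, the Supplementary methods call them untreated, and which applied was not settled here. No mouse without bleomycin was sequenced, so the levels below have no uninjured reference. Each library came from 1 mouse, and its counts summed to between 18157161 and 26365969 reads.

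Haemoglobin carries oxygen as a tetramer of alpha and beta globin chains, each holding a haem group. The globin genes are switched on in erythroblasts, the nucleated red cell precursors of the bone marrow and spleen. After the nucleus is lost, the young red cell, or reticulocyte, keeps globin mRNA for a short time in the circulation. Alas2 encodes the erythroid form of the first enzyme of haem synthesis, and Slc4a1 encodes band 3, the anion exchanger of the red cell membrane. Globin mRNA in a piece of lung can therefore come from blood in its vessels or from haemorrhage. In bulk tissue, fewer cells of a type and less RNA per cell cannot be told apart.

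The alpha globins lie on chromosome 11 of GRCm38, Hba-a1 (ENSMUSG00000069919.7) at 32283511 to 32284465 and Hba-a2 (ENSMUSG00000069917.7) at 32296489 to 32297298, both on the forward strand. The beta globins lie on chromosome 7 on the reverse strand, Hbb-bs (ENSMUSG00000052305.6) at 103826534 to 103828096 and Hbb-bt (ENSMUSG00000073940.3) at 103812524 to 103813996. Alas2 (ENSMUSG00000025270.13) is at 150547375 to 150570638 on the forward strand of chromosome X. Slc4a1 (ENSMUSG00000006574.15) is at 102348824 to 102366203 on the reverse strand of chromosome 11.

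Within each globin pair the coding sequences are nearly one sequence. Over 429 coding bases, Hba-a1 and Hba-a2 differ at 1 base, C381T counted from the first base of the start codon, which leaves the amino acid the same. Over 444 coding bases, Hbb-bs and Hbb-bt differ at 1 base as well, C417T, again with the same amino acid. The encoded proteins, 142 residues for the alpha pair and 147 for the beta pair, have 0 differences within a pair in the GENCODE vM21 transcripts. The 60 coding bases around each differing base are shown because they are the only place in the coding sequence where a read can be told apart, with the differing base in capitals. The alpha stretches are chr11:32284307-32284366 and chr11:32297124-32297183, and the beta stretches are chr7:103826669-103826728 and chr7:103812660-103812719, read on the strand of the gene.

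Hba-a1: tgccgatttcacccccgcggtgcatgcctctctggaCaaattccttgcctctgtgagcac
Hba-a2: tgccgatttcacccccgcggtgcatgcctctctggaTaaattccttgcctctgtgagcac
Hbb-bs: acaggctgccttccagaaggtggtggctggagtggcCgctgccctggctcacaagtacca
Hbb-bt: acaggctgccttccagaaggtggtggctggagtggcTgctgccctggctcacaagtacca

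This likeness decides which reads could be counted. featureCounts at its default settings leaves out reads that map to several places, and a read inside a stretch that both copies share has no single place. For each transcript, all windows of 150 bases, the length of 1 sequenced end, were compared with every other transcript. Of the Hba-a1 windows, 48.4% (266 of 550) also occurred in Hba-a2, and the same 266 windows made up 65.7% of the 405 of Hba-a2. Of the Hbb-bs windows, 58.7% (281 of 479) also occurred in Hbb-bt, where they made up 50.7% of 554. Each shared run stopped at the base before the differing base. Alas2 shared 8.63% of its windows with Apex2, a gene on the opposite strand whose exons and those of Mir3620 overlap 372 of its 2403 exonic bases. Slc4a1 shared 0 of 4396.

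**Figure D1:**
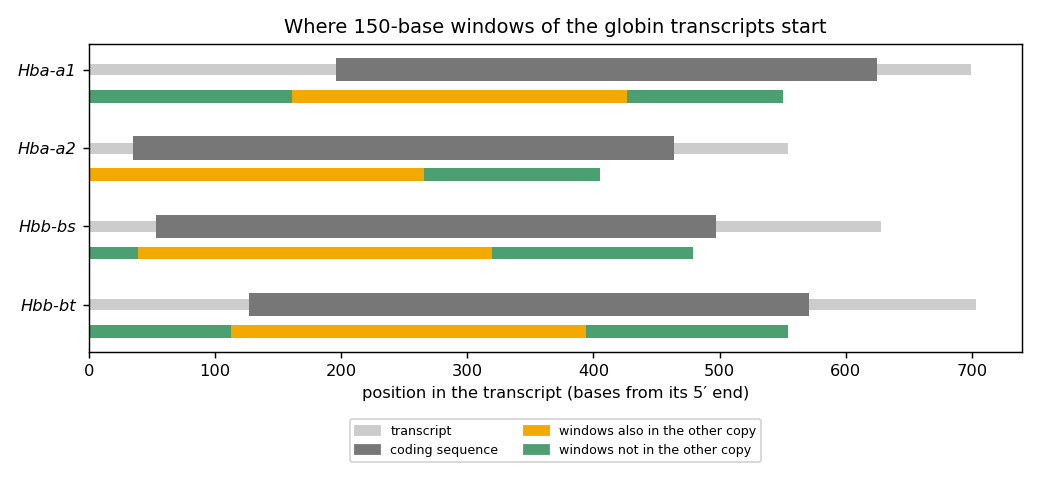
Position along each globin transcript in bases (x) for the 4 globin genes (rows), with the coding sequence in dark grey on the transcript in light grey, and below it the start positions of the 150-base windows, orange where the window also occurs in the other copy and green where it does not. The orange run covers 266 starts in each alpha globin and 281 in each beta globin.

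A sequenced fragment has 2 ends, and an end outside the shared run can place the other. For fragments of 300 bases, both ends fell in shared windows in 29.0% of the Hba-a1 positions, 45.5% of Hba-a2, 39.8% of Hbb-bs and 32.4% of Hbb-bt. The true fragment lengths are not given in the sources used here. The vM21 transcript of Hba-a1 starts further upstream than that of Hba-a2, and 142 of the 161 windows before its shared run also occur in the genome just before Hba-a2. The counts below hold no read with several places, and how many were left out for each copy was not analysed here. The counts of the copies are therefore uncertain as levels of each gene. The count of each copy is made by the same rule in every mouse. The share left out can still differ between libraries if their fragment lengths differ, which was not analysed here.

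Around the RefSeq starts the pairs differ in likeness. Over 297 bases of the RefSeq promoter entries (GRCm38.p6), Hba-a1 and Hba-a2 had 0 differences, and over 299 bases Hbb-bs and Hbb-bt had 131. The stretch before Hba-a2, chr11:32296372-32296488 on the forward strand, is shown because it stands for both alpha globins, with 3 promoter motifs in capitals, from the left the CCAAT box, the CACCC element and the TATAA box.

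Hba-a2 upstream: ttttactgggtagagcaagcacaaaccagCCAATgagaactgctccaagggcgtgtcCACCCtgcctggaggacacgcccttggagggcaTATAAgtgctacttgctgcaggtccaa

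Promoter entries were found for 5 of the 7 listed genes, and the 120 bases before each RefSeq start were searched on both strands for CCAAT, for the element CACCC, for the box TATAA, and for a GATA motif spelled AGATAA or else with a first letter T as TGATAA. The box CCAAT, the letters bound by the NF-Y factor, occurred in all 4 globins, and in 21.3% of all 32851 entries. CACCC, a core of the sites of erythroid Kruppel-like factor, occurred in all 4 globins and in Alas2, against 31.7% of all entries. TATAA occurred in the 4 globins and in 11.8% of all entries. A GATA motif was found in Alas2, and in 7.63% of all entries. The 120 bases lie wholly within the gene coordinates given above for Hba-a1 and Hbb-bs, and partly within them for Hba-a2, Hbb-bt and Alas2. A match in these letters is not a measured site.

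The most abundant of the genes was Hbb-bs. Its level in CPM, a read count scaled to equal library size, was 748, 678, 1722 and 1111 in BLM 1 to BLM 4, and 1785, 1570 and 914 in BLM+HBO 1 to BLM+HBO 3. BLM 3 lay between the 2 highest BLM+HBO mice and BLM+HBO 3 lay within the BLM range, so the groups overlapped. The means were 1065 ± 477 CPM (SD, n = 4) and 1423 ± 454 CPM (SD, n = 3), and Hbb-bs ranked 47th of all genes by mean CPM. The log2 fold change of BLM+HBO over BLM was 0.42 (standard error 0.34, 95% interval -0.33 to 1.17), with adjusted P = 0.672 by edgeR's quasi-likelihood test. A two-sided exact permutation test over the 35 ways to assign the mice, which can give no P below 0.0286, gave P = 0.314 for the difference in mean log2 CPM, here 0.46.

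Hbb-bt, the second adult beta globin, had 71.1, 74.8, 168 and 108 CPM in the BLM mice and 168, 146 and 106 CPM in the BLM+HBO mice. The order of the mice was nearly that of Hbb-bs, with BLM 1 and BLM 2 lowest and BLM 3 level with BLM+HBO 1. Its means were 106 ± 45 (SD, n = 4) and 140 ± 31.0 CPM (SD, n = 3). The log2 fold change was 0.41 (standard error 0.29), with adjusted P = 0.629 by edgeR and P = 0.314 by exact permutation.

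Hba-a1, the more strongly counted alpha globin, had 591, 559, 1481 and 882 CPM in the BLM mice and 963, 1242 and 673 CPM in the BLM+HBO mice. BLM 3 was the highest of the 7 mice, and the groups overlapped across most of their range. The means were 878 ± 427 (SD, n = 4) and 960 ± 285 CPM (SD, n = 3). The log2 fold change was 0.13 (standard error 0.34, 95% interval -0.64 to 0.89), with adjusted P = 0.922 by edgeR and P = 0.657 by exact permutation. Its sign turned when BLM 1 (-0.02), BLM 2 (-0.04) or BLM+HBO 2 (-0.10) was left out.

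Hba-a2 followed another order. It had 59.3, 64.0, 86.5 and 183 CPM in the BLM mice and 173, 208 and 109.6 CPM in the BLM+HBO mice. BLM 4, intermediate for the other globins, was second highest here, while BLM 3, highest for Hba-a1, lay below all 3 BLM+HBO mice. The means were 98.1 ± 57.6 (SD, n = 4) and 164 ± 50.0 CPM (SD, n = 3). Its log2 fold change of 0.74 (standard error 0.38, 95% interval -0.11 to 1.58) had an adjusted P = 0.516 by edgeR and P = 0.143 by exact permutation. Without BLM 4 it was 1.23 (adjusted P = 0.287, edgeR) and without BLM+HBO 3 it was 0.95 (adjusted P = 0.691, edgeR), and both passed the thresholds given below. The lowest value with 1 mouse left out was 0.52, without BLM+HBO 2. When the counts of both alpha globins were summed before the test, so that the division between them could not matter, the log2 fold change was 0.20 with adjusted P = 0.859 by edgeR.

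Alas2 had 40.2, 36.2, 71.5 and 55.6 CPM in the BLM mice and 97.8, 67.8 and 40.6 CPM in the BLM+HBO mice. BLM+HBO 1 was highest and BLM+HBO 3 was level with BLM 1, so the groups overlapped. The means were 50.9 ± 16.1 (SD, n = 4) and 68.7 ± 28.6 CPM (SD, n = 3), with a log2 fold change of 0.43 (standard error 0.30), adjusted P = 0.628 by edgeR and P = 0.400 by exact permutation. Without BLM+HBO 3 the log2 fold change was 0.70 (adjusted P = 0.691, edgeR), and without BLM+HBO 1 it was 0.089 (adjusted P = 0.958, edgeR). The count includes reads from the exons that overlap Apex2 only where they could be assigned, since the strand was not used.

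Slc4a1 was the scarcest of the genes and varied most. It had 19, 13, 175 and 16 reads in the BLM mice and 70, 51 and 141 reads in the BLM+HBO mice, which is 1.05, 0.733, 9.61 and 0.842 CPM against 3.73, 2.44 and 5.29 CPM. BLM 3 was higher than every other mouse, while the remaining BLM mice were all lower than the 3 BLM+HBO mice. The means were 3.06 ± 4.37 (SD, n = 4) and 3.82 ± 1.43 CPM (SD, n = 3). The log2 fold change was 0.32 (standard error 0.84, 95% interval -1.56 to 2.21), with adjusted P = 0.919 by edgeR. On log2 CPM the difference between the group means was larger, 1.12, with P = 0.286 by exact permutation. Without BLM 3, the highest mouse, the log2 fold change was 2.12 (standard error 0.38) with adjusted P = 0.380 by edgeR. With any other mouse left out it was between 0.00025 (without BLM 2) and 0.56 (without BLM+HBO 2).

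**Figure D2:**
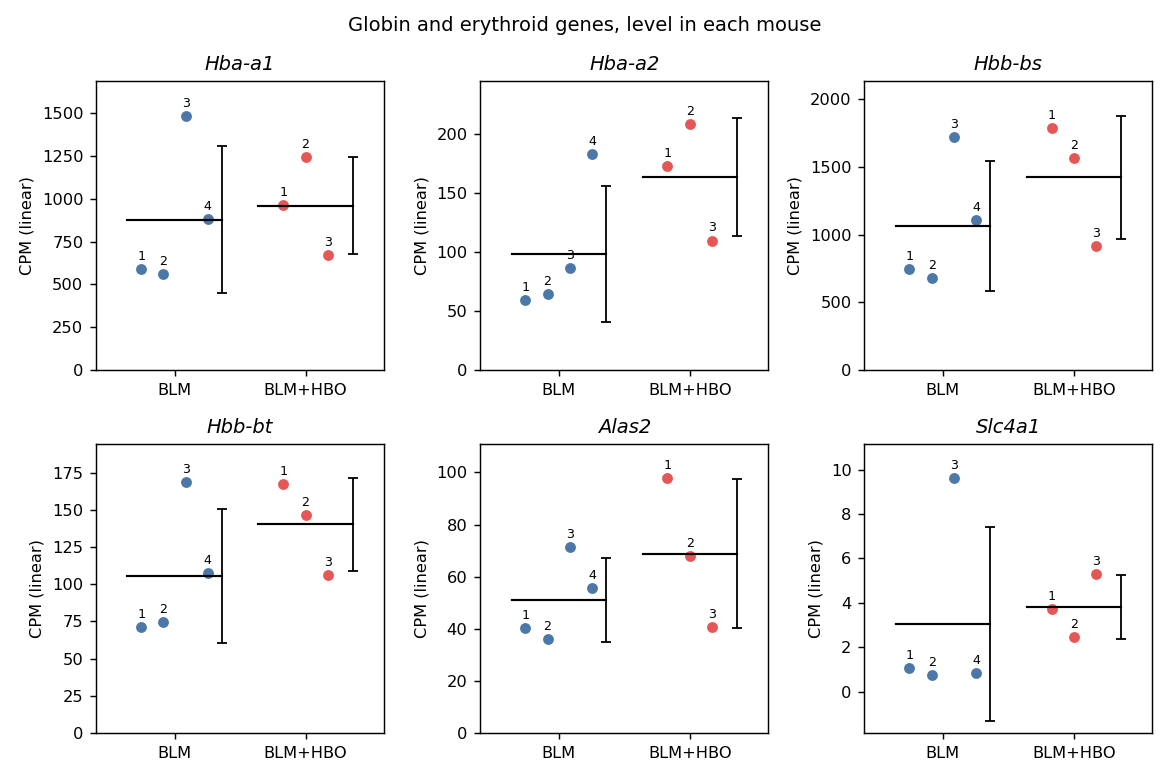
Level of each of the 6 genes in CPM (y, linear) in the 4 BLM and 3 BLM+HBO mice (x), 1 point a mouse with its replicate number, the line at the group mean and the bar 1 SD. The groups overlap in every panel, BLM 3 is the highest BLM mouse for all but Hba-a2, and for Slc4a1 the lower end of the BLM bar falls below 0 because 1 mouse carries the spread.

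The study's thresholds were a P below 0.05 before adjustment and a fold change over 1.5. At these, edgeR called 0 of the 6 genes. Over all 17465 genes tested, 6.29% were called, 3.40% higher in BLM+HBO and 2.89% lower. At an unadjusted P below 0.05 alone the count was again 0 of 6, against 10.7% of all genes, and DESeq2 also called 0 of 6. At an adjusted P below 0.05, 0 genes were called by edgeR in the whole table, with a lowest adjusted P of 0.423, while 1861 genes had a P below 0.05 before adjustment and DESeq2 called 128 at the adjusted limit. All 6 fold changes were above 1, with a median over all genes of 0.01 on the log2 scale and 51.2% of all genes above 0. The 6 genes all mark red cells and their precursors and were read in the same mice, so their common sign is not 6 separate observations. The spread within a group was larger than the difference between groups. Within BLM, the highest mouse had between 1.98 and 3.08 times the level of the lowest for the globins and Alas2 and 13.1 times for Slc4a1, against fold changes of 1.09 to 1.67 between the groups. All 6 of the 95% intervals included 0. On the log2 scale their lower bounds ran from -1.56 (Slc4a1) to -0.11 (Hba-a2) and their upper bounds from 0.89 to 2.21. Both decreases and increases therefore lay within every interval.

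The count of 0 changed most when BLM 3 was left out. BLM 3 was the highest BLM mouse for all but Hba-a2, so leaving it out lowers the BLM means of the other genes. The calls made without it are therefore no separate support for an increase. Without BLM 3, edgeR called 3 of the 6 genes, all higher in BLM+HBO, against 7.44% of all 17227 genes tested (4.56% higher in BLM+HBO): Slc4a1 as above, Hbb-bs at a log2 fold change of 0.75 (adjusted P = 0.387) and Hbb-bt at 0.73 (adjusted P = 0.380). Without BLM 4, 1 gene was called, against 7.08% of all genes, and without BLM+HBO 3, 2 genes were called, against 4.95% of all genes. Nothing in the sample records sets BLM 3 apart from the other BLM mice.

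Compared per kilobase of exon, the levels over all 7 mice were ordered Hbb-bs (1586 CPM per kb), Hba-a1 (1125), Hba-a2 (189), Hbb-bt (171), Alas2 (24.4) and Slc4a1 (0.692). Hba-a2 and Hbb-bt, neighbours in this order, did not differ beyond their spread between mice, and the ranges of Hbb-bs and Hba-a1 over the mice overlapped as well. Together the 4 globins took 0.132% to 0.341% of the assigned reads of a mouse, 0.145%, 0.132%, 0.341% and 0.228% in BLM 1 to BLM 4 and 0.320%, 0.321% and 0.182% in BLM+HBO 1 to BLM+HBO 3. BLM 3 held the largest share and BLM 1 and BLM 2 the smallest.

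Ratios of counts within a mouse do not depend on how its library was scaled. Those that hold globin copies can still depend on how many reads with several places were left out. Hbb-bs over Hbb-bt was the steadiest, at 10.5, 9.06, 10.2 and 10.3 in the BLM mice and 10.7, 10.7 and 8.59 in the BLM+HBO mice. The lowest and highest mice differed 1.25-fold, and the group means were 10 ± 0.659 (SD, n = 4) and 9.99 ± 1.21 (SD, n = 3). The sum of the beta globins over the sum of the alpha globins was 1.26, 1.21, 1.21 and 1.14 in the BLM mice and 1.72, 1.18 and 1.30 in the BLM+HBO mice. BLM+HBO 1 stood apart from the other 6 mice, which lay between 1.14 and 1.30.

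The alpha pair was not steady. Hba-a1 over Hba-a2 was 9.98, 8.73, 17.1 and 4.83 in the BLM mice and 5.58, 5.96 and 6.14 in the BLM+HBO mice. The 3 BLM+HBO mice lay close together, inside a BLM range of 3.55-fold. As a share, Hba-a2 made up 5.52% of the alpha globin reads in BLM 3 (exact 95% interval 5.26% to 5.79%) and 17.2% in BLM 4 (16.6% to 17.7%). The intervals do not meet, but they cover counting error only and take each read as independent. The source of this difference between 2 mice of 1 group was not tested. In the beta pair the share of Hbb-bt stayed between 8.53% and 10.4%.

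Globin reads per Alas2 read ranged from 31.6 in BLM+HBO 1 to 48.3 in BLM 3. Slc4a1 reads per 1000 Alas2 reads were 26, 20.2, 134 and 15.2 in the BLM mice and 38.1, 36 and 130 in the BLM+HBO mice. BLM 3 and BLM+HBO 3 were several times above the other mice of their own group. These ratios varied 8.86-fold over the mice, where the ratio of globins to Alas2 varied 1.53-fold.

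**Figure D3:**
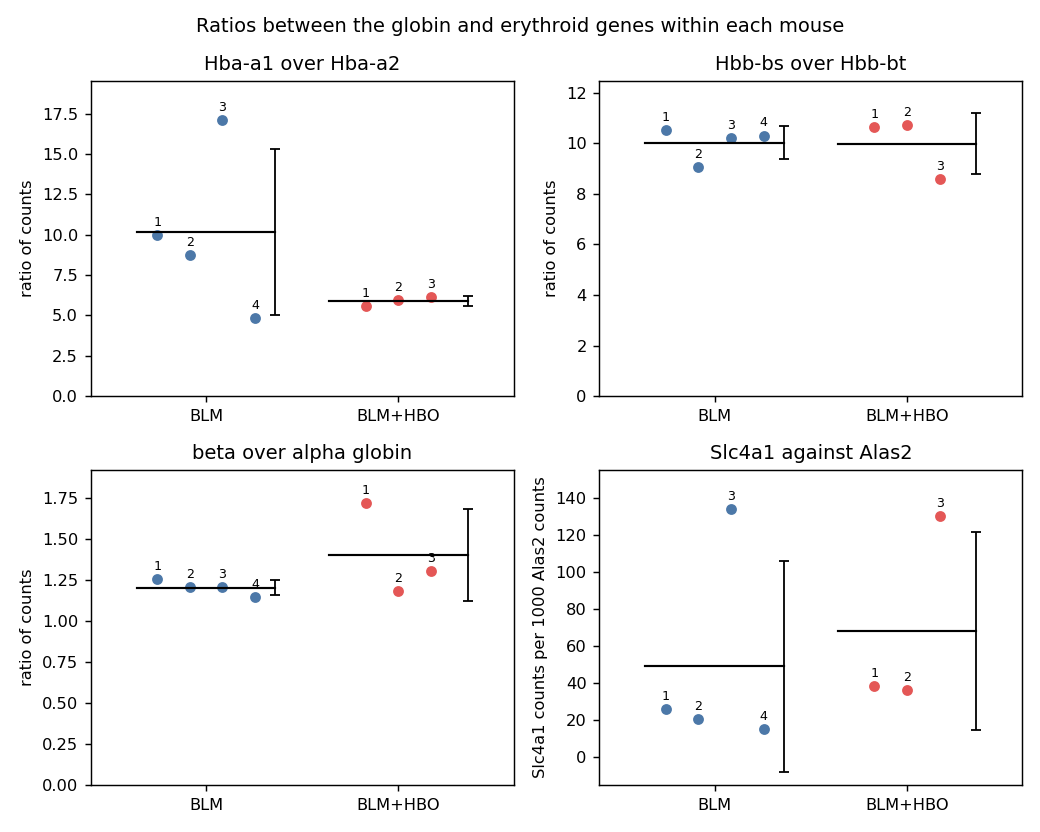
Ratio of counts (y, linear, 4 panels) within each of the 4 BLM and 3 BLM+HBO mice (x), 1 point a mouse with its replicate number, the line at the group mean and the bar 1 SD. The beta pair stays between 8.59 and 10.7, the alpha pair spreads from 4.83 to 17.1 among BLM mice, BLM+HBO 1 stands apart in beta over alpha at 1.72, and BLM 3 and BLM+HBO 3 stand apart in Slc4a1 against Alas2.

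Across the 7 mice the genes followed each other to different degrees. Pearson's r between log2 levels was 0.98 for Hbb-bs with Hbb-bt, 0.96 for Hbb-bs with Alas2 and 0.92 for Hbb-bs with Hba-a1. For Hba-a2 it was 0.55 with Hba-a1 and 0.16 with Slc4a1. These values describe 7 libraries that also share depth and scaling, and they carry no test. Among all other tested genes, those most like the mean standardised level of the 6 genes were Swap70 (r = 0.99, a gene with a role in B cell activation), Mrps33 (0.99, mitochondrial ribosome) and Rbak (0.97), followed by Gm5547, Usp18, Gm37254, Hira, Srsf5, Smim26 and Cdiptos down to 0.95. Of the 17465 genes, 12 had an r as high as that of Cdiptos, Hbb-bs and Hbb-bt among them.

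Related genes were taken from 6 lists holding 80 genes, of which 57 were tested: other globins, haem synthesis, red cell membrane and skeleton, erythroid transcription factors, red cell maturation and metabolism, and the clearance of haemoglobin and haem. Of these, 39 had a higher mean in BLM+HBO, the median log2 fold change was 0.11 against 0.01 over all genes, and 8.77% (5 genes) were called, 3 higher and 2 lower, against 6.29% of all genes. The genes called higher were Mb, Ank1 and Myb, and those called lower were Cd163 and Hmox1. Of these 5, Mb, Cd163 and Hmox1 are not particular to red cells, and no value here shows that Ank1 or Myb is. Whether the reads of Ank1 and Myb came from red cells or their precursors was not tested. The adjusted P of each was at least 0.423 by edgeR.

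Among the 13 other globins, Hba-x, Hbb-bh0, Hbb-bh1, Hbb-bh2 and Hbb-bh3 had 0 reads in every mouse, which allows up to 3 reads or 0.113 to 0.169 CPM a mouse. Hba-x and Hbb-bh1 belong to the embryonic red cell. The embryonic globin Hbb-y had at most 0.0957 CPM in any mouse. The theta globins Hbq1a and Hbq1b had at most 0.637 CPM, and the pseudogenes Hba-ps3 and Hba-ps4 at most 0.275 CPM. The haemoglobin genes read at more than 1 CPM were the adult ones. Cytoglobin (Cygb), a globin of fibroblasts and related cells, had 54.1, 76.4, 67.4 and 57.3 CPM in the BLM mice and 59.8, 59.3 and 50.1 CPM in the BLM+HBO mice, with a log2 fold change of -0.18 (adjusted P = 0.663, edgeR). Neuroglobin (Ngb) had between 0.551 and 3.89 CPM, with a log2 fold change of 0.76 (adjusted P = 0.637, edgeR).

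Myoglobin (Mb), the oxygen store of muscle, had 0.826, 1.86, 1.48 and 2.37 CPM in the BLM mice and 37.1, 16.9 and 6.41 CPM in the BLM+HBO mice. Every BLM+HBO mouse was higher than every BLM mouse, as for 4.05% of all genes, and the log2 fold change was 3.61 (standard error 0.55, adjusted P = 0.423, edgeR). Mb moved with the heart muscle markers, of which 9 of 10, Mb included, were called higher, against 3.40% of all genes. The summed level of the 10 was 68.2 to 189 CPM in BLM and 168 to 735 CPM in BLM+HBO. Nppa alone of the 10 was not called, at 2.25 CPM or less in every mouse. Their part in the result for Mb was not tested. The order of the mice for Mb was not that of Hbb-bs: BLM 3 was low for Mb and high for Hbb-bs.

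Of the 12 genes of haem synthesis, 0 were called. The 4 with the highest level per kb were Tmem14c (log2 fold change -0.13), Alas1 (0.36, adjusted P = 0.482, edgeR), Alad (0.16) and Urod (0.03). Alas1 is the form of the first enzyme that all tissues use, and its mean level per kilobase of exon was 48.6 CPM per kb in BLM and 62.1 CPM per kb in BLM+HBO, where Alas2 had 21.2 and 28.6 CPM per kb. These genes also serve cells other than red cells.

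In the red cell membrane and skeleton list, 1 of the 12 genes tested was called. Ank1, the ankyrin that ties band 3 to the membrane skeleton, had 2.04, 1.75, 3.57 and 2 CPM in BLM and 5.80, 4.16 and 2.93 CPM in BLM+HBO. BLM 3 lay above BLM+HBO 3, and the log2 fold change was 0.87 (standard error 0.34, adjusted P = 0.440, edgeR). The 4 highest per kb were Gypc (log2 fold change -0.07), Epb41 (0.23), Tmod1 (0.25) and Dmtn (0.14), and 0 of these were called.

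Among the erythroid transcription factors, 1 of the 10 tested was called. Myb, which keeps blood progenitors in an immature state, had 5.67, 7.5, 10.4 and 5.42 CPM in BLM and 14.9, 6.51 and 16.2 CPM in BLM+HBO. BLM+HBO 2 lay within the BLM range, and the log2 fold change was 0.79 (standard error 0.34, adjusted P = 0.459, edgeR). Gata1, the leading erythroid factor, had between 0.287 and 1.44 CPM (log2 fold change 0.72, adjusted P = 0.652, edgeR). Klf1, a direct activator of the adult beta globins, did not pass the filter and was highest in BLM 3, at 1.04 CPM. The 4 with the highest level per kb were Ldb1 (0.11), Lmo2 (0.45), Zbtb7a (0.06) and Zfpm1 (-0.14), none of them called.

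Of the 14 tested genes of red cell maturation and metabolism, 0 were called. The 4 highest per kb were Prdx2 (-0.07), Car2 (0.08), Bnip3l (0.05) and Mkrn1 (0.08).

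**Figure D4:**
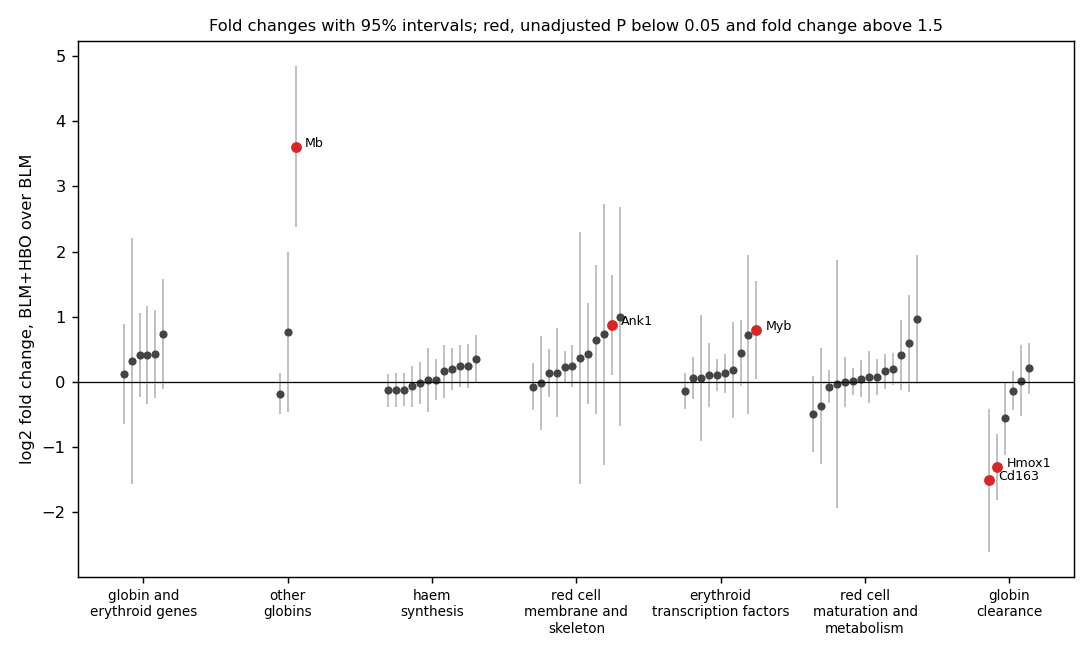
Log2 fold change of BLM+HBO over BLM (y) with its 95% interval for the 6 globin and erythroid genes and the 57 tested genes of the 6 lists (x, in order of fold change within a list), in red where both thresholds were passed. No interval of the 6 genes clears 0, and 5 list genes are red.

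Free haemoglobin and haem are cleared by haptoglobin (Hp), hemopexin (Hpx), their receptors Cd163 and Lrp1, and the haem oxygenase Hmox1. Hmox1 had 216, 211, 119 and 133 CPM in BLM and 64.8, 78.2 and 62.8 CPM in BLM+HBO. All 3 BLM+HBO mice were below all 4 BLM mice, a separation that 4.72% of all genes showed in this direction. Its log2 fold change was -1.31 (standard error 0.22, adjusted P = 0.423, edgeR). Cd163, the macrophage receptor for haemoglobin bound to haptoglobin, had 50.9, 43.9, 25.8 and 14.5 CPM in BLM and 5.64, 20.2 and 9.71 CPM in BLM+HBO. BLM+HBO 2 lay above BLM 4, and the log2 fold change was -1.51 (standard error 0.49, adjusted P = 0.423, edgeR). Hp (log2 fold change 0.21), Lrp1 (-0.56), Blvrb (-0.13) and Hpx (0.02) were not called. Of the 5 alveolar macrophage markers tested, 3 (Marco, Chil3 and Mrc1) were called lower, against 2.89% of all genes. Siglecf (log2 fold change 0.38) and Ear2 (0.29) had higher means and were not called. The summed level of the alveolar macrophage markers, most of it Chil3, was 681 to 2194 CPM in BLM and 586 to 842 CPM in BLM+HBO. Their part in the lower Cd163 and Hmox1 was not tested.

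The high level of Slc4a1 in BLM 3 and BLM+HBO 3 was also seen in some genes of the erythroid lists. In the lists for membrane and skeleton, transcription factors, and maturation, 48 of 49 genes had at least 10 reads in all. In BLM 3, 10 of the 48 (20.8%) were at least 3 times as high as in every other BLM mouse, against 1.39% of 23239 genes in the whole table. In BLM 1, BLM 2 and BLM 4 the count was 0 of 48. In BLM+HBO 3, 5 of the 48 (10.4%) were at least 3 times as high as in BLM+HBO 1 and BLM+HBO 2, against 1.89% of all genes. The share over all genes was not matched for read count, and low counts vary more by sampling alone. This comparison was chosen after the values were seen and carries no test.

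Among the 10 genes of BLM 3 were Car1, Cldn13, Gfi1b, Hemgn, Kel, Rhag, Rhd and Tspo2, and they were read at low counts. Kel, a blood group antigen, had 0, 0, 23 and 0 reads in the BLM mice against 1, 0 and 15 reads in the BLM+HBO mice. Rhd, the red cell antigen of the Rhesus blood group, had 3, 0, 23 and 5 reads against 9, 2 and 30 reads. Tspo2, a protein of erythroid cells, had 1, 1, 17 and 4 reads against 5, 5 and 22 reads. Of the 10 genes, 8 were highest in BLM+HBO 3 among the BLM+HBO mice by CPM. The other two were Gfi1b, with 17, 0 and 13 reads in BLM+HBO 1 to BLM+HBO 3, and Car1, with 0, 1 and 1 reads.

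Globin levels divided the mice in another way. BLM+HBO 3, high for Slc4a1, Kel and Rhd, was the lowest BLM+HBO mouse for all 4 globins and Alas2, whereas BLM 3 was high for both kinds of gene but not for Hba-a2. Without BLM 3, 10 of the 55 genes of the 6 lists that were then tested were called, against 7.44% of all genes. Leaving out each mouse in turn gave 3 to 10 list genes, and the fit without BLM 3 gave the most. Of the 10, 7 were higher in BLM+HBO, and Ermap (1.19) and Epor (0.85) were among those that joined Mb, Ank1 and Myb.

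**Figure D5:**
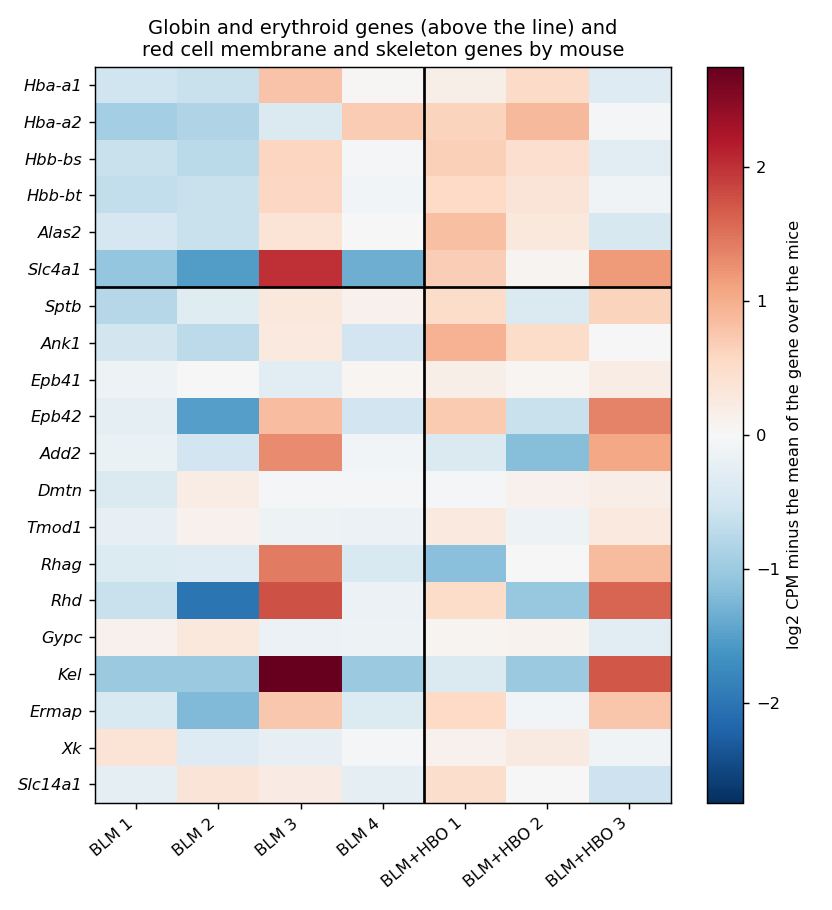
Log2 CPM minus the mean of the gene over the 7 mice (colour) for the 6 globin and erythroid genes above the line and 14 genes with a read of the membrane and skeleton list below it (rows), by mouse (columns, BLM left of the vertical line). BLM 3 and BLM+HBO 3 are red for Slc4a1, Rhag, Rhd and Kel, while BLM+HBO 3 is pale or blue for the globins.

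Markers of other cells give the setting of these levels. Surfactant genes of alveolar type 2 cells summed to 8745 to 16004 CPM in BLM and 11109 to 27489 CPM in BLM+HBO, and type 1 and endothelial markers were present in every mouse, as the label lung requires. Markers of cells that also travel in blood were summed in the same way. Neutrophil markers summed to 324 to 409 CPM in BLM and to 667, 209.5 and 206 CPM in BLM+HBO 1 to BLM+HBO 3. Of the 10 tested, 0 were called higher and 1, Ltf (log2 fold change -0.81), was called lower, against 2.89% of all genes. Ltf had 108 to 152 CPM of these sums in BLM and 64.5 to 98.7 CPM in BLM+HBO. Platelet markers summed to 134 to 173 CPM in BLM and 121 to 229 CPM in BLM+HBO, with Gp1bb at 0 in all mice. Of the 10 tested, 5 were called higher, against 3.40% of all genes, and 2 had lower means. These 2 were Pf4 (log2 fold change -0.16) and Itgb3 (-0.53), and Itgb3 alone had 56.3 to 105 CPM a mouse. B cell markers (6 of 6 called higher, against 3.40% of all genes) summed to 59.6 to 115 CPM in BLM and 111 to 231 CPM in BLM+HBO. T cell markers (0 of 6 called) summed to 33.8 to 53.7 CPM in BLM and 35.9 to 80.0 CPM in BLM+HBO. BLM+HBO 1 was highest in each of these 4 lists and in Alas2 and Hbb-bs. The highest mouse was BLM 3 for Hba-a1, Hbb-bt and Slc4a1, and BLM+HBO 2 for Hba-a2. The part of blood content in the levels of the globin and erythroid genes was not tested.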

How the data were processed

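Lung RNA libraries (NEBNext Ultra, paired ends of 150 bases) were trimmed, mapped to GRCm38 with HISAT2 2.2.0 and counted per gene with featureCounts, and the authors deposited these raw read counts without normalization. The annotation release is not given in the sources used here. Symbols came from GENCODE vM21, which matched 55141 of 55401 genes (54349 in the same version).

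Low counts were removed by filterByExpr (count 10, total 15), and libraries were scaled by TMM (factors 0.964 to 1.036) before testing by edgeR 4.0.16 (quasi-likelihood, not robust, common biological coefficient of variation 0.222) with R 4.3.3, over all 17465 genes, with Benjamini-Hochberg adjustment. CPM used effective library sizes. Log2 CPM used a prior count of 2. Replicate libraries differed by more than sampling noise, so each counted once. DESeq2 1.42.0 and limma 3.58.1 were alternatives, and the script was tested on simulated data. P-values set the difference between the groups against the spread between these mice. The genes, lists and comparisons were chosen with earlier results of these data known. List genes were named where called, among the 4 highest per kb, or as a globin; others named were chosen after their values were seen. Coordinates are those of the deposited table, and copy windows came from vM21 transcripts. Some genes of the lists are not reported here by name.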

Additional observations from a re-analysis of the deposited data

Results flagged for a closer look

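Over 19 sets of 4 BLM values, each tested for 1 mouse far from the others by Dixon's criterion, 4 stood out, and chance gives about 1 in 20. In BLM 3, Slc4a1 stood out at 9.61 CPM, at 3.28 on the log2 CPM scale and at 134 reads per 1000 Alas2 reads, which are 3 views of 1 count. The gap from BLM 3 to the next BLM mouse was 0.965, 0.870 and 0.909 of the range in these 3 views. The total count of BLM 4, 19002242, stood out from 3 totals that lay within a narrow band, and its size was within the range of the BLM+HBO mice. Groups of 3 were not examined.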

How the results depend on the processing

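The 6 log2 fold changes were computed under 18 alternatives. Hba-a1 turned sign without BLM 1 (-0.02), BLM 2 (-0.04) and BLM+HBO 2 (-0.10). Hba-a2 passed the thresholds by limma-trend (0.84), with no filter on low counts (0.73) and with the replicate number as a block (1.2). Deviations of same-numbered mice from their group means correlated at -0.01, -0.07 and 0.16. BLM+HBO 1 and BLM+HBO 2 correlated best with a BLM mouse of another number, and BLM+HBO 3 with BLM 3. With so few mice these values cannot settle whether the numbers pair the mice. Under that block, 1 of the 6 genes and 3 of the 57 list genes were called, against 7.20% of all genes. The count among the 6 was 1 by limma-trend and with no filter. Leaving out 1 mouse gave 0 to 3 of the 6 genes, 3 to 10 list genes, 659 to 1914 of all genes, and 0 to 267 at an adjusted P below 0.05. For each gene these fits ranged from -0.10 to 0.50 for Hba-a1, 0.52 to 1.23 for Hba-a2, 0.22 to 0.75 for Hbb-bs, 0.26 to 0.73 for Hbb-bt, 0.089 to 0.70 for Alas2 and 0.00025 to 2.12 for Slc4a1. With no filter, 1940 of all genes and 8 list genes were called, and 387 at an adjusted P below 0.05, where DESeq2 gave 128. A fold change above 2 left 509 of all genes and 3 list genes, and a P limit of 0.01 left 319 and 2. The lowest adjusted P of any of the 6 genes in any alternative was 0.149, for Hba-a2. The cause of these changes was not tested. Slc4a1 rests on 13 to 175 reads a mouse, and the counts of the globin copies leave out reads with several places in the genome.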
